A study of Homo sapiens with 12 samples.

Results

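The genes described here copy DNA and supply its building blocks: 41 genes of origin licensing, the replicative helicase, the polymerases, the sliding clamp and its loaders, fragment joining and deoxynucleotide synthesis, with their transcription factor E2F1. They were listed by name, and every probe set of the array whose annotation gave 1 of these symbols alone was taken, which found 78 probe sets for all 41 of 41 genes, out of 19775 genes in all. RNA came from MDA-MB-231, a long-established human cell line grown from metastatic breast cancer, and was read on 12 arrays in 3 groups of 4, lettered A to D. Control cells carried a retroviral small hairpin against GFP (shGFP). In shHIF cells, retroviral hairpins targeted both HIF1a and HIF2a, the oxygen-regulated subunits of the hypoxia-inducible factors. Sharp1 cells overexpressed Sharp1, the helix-loop-helix repressor encoded by BHLHE41. No group was treated further, and all grew in serum-containing medium. Whether a group was a pool or a clone, which vector carried Sharp1, and whether A to D, labelled biological replicates, came from separate cultures is left unsaid by the labels. The p-values therefore cover the spread of the arrays only, which may be technical.

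Before each S phase, the origin recognition complex, CDC6 and CDT1 load the MCM2 to MCM7 ring on origins. CDC45 and the GINS complex then turn this ring into an active helicase, primase and DNA polymerases alpha, delta and epsilon synthesise the strands, and PCNA, loaded by the RFC complexes, holds the polymerases on DNA. Ribonucleotide reductase, thymidylate synthase and thymidine kinase supply deoxynucleotides, and E2F factors activate most of these genes as cells leave G1.

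The values are log2 signals (RMA), and unless a probe set is named otherwise, a gene is given by its brightest one over the 12 arrays. Calls are those with an adjusted p under 0.05 in limma's test, Benjamini-Hochberg over all 19775 genes. The array medians lay between 5.39 and 5.44, and all 41 genes read above the median of all probe sets (5.41), at means from 7.54 to 13.1. In shHIF cells EPAS1 (HIF2a) fell by 2.85 and HIF1A by 0.73. With Sharp1 overexpression, 2 of 4 probe sets of BHLHE41 rose, by 5.35 and 1.59, while the one brightest in control fell by 2.06. EPAS1 also fell by 0.71 in Sharp1 cells. The 8 markers of this line (VIM, CD44, CAV1, AXL, EGFR, FOSL1, MSN and LGALS1) averaged 12.57 to 12.64 on control, 12.47 to 12.53 on shHIF and 12.49 to 12.66 on Sharp1 arrays. Of markers of other cells, 3 of 3 leukocyte, 3 of 6 luminal breast, 2 of 5 fibroblast and 1 of 2 endothelial genes were below 5.41 in every group, PTPRC, PGR, CDH1, LUM and CDH5 among them. The rest were not: in control, luminal GATA3, ERBB3 and ESR1 read 8.57, 6.89 and 6.27. Fibroblast COL1A1, PDGFRB and DCN read 7.57, 6.06 and 5.32 there (DCN 5.55 in shHIF cells), and endothelial PECAM1 6.86. Spike-in signal averaged 9.99 and 10.02 on shHIF A and D against 10.4 to 10.6 on the other arrays, and the actin 3′ minus 5′ signal reached 0.94, 0.90 and 0.91 in 3 shHIF arrays (A to C) and 0.85 on Sharp1 C, against 0.59 to 0.74 on control arrays and 0.56 to 0.68 on the other Sharp1 arrays. The part of these differences in the results was not tested, and calls that change without shHIF arrays A and D, those of low spike-in signal, are given with that value. The arrays of high actin signal were left out one at a time only.

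Replication genes did not move as a block in Sharp1 or shHIF cells. RRM1, the large subunit of ribonucleotide reductase, was the only member past 0.5 on the log2 scale, and it fell 1.69-fold in shHIF cells (log2 -0.76, SE 0.03, n = 4 per group). MCM6, POLE2 and FEN1 fell with it, and E2F1 itself rose 1.28-fold there. In Sharp1 cells CDC6 rose 1.32-fold and RRM2, RPA1 and RPA2 rose by smaller amounts, as did RFC3 on its brightest probe set alone. MCM3, MCM7 and LIG1 fell there 1.16-fold, 1.15-fold and 1.16-fold, MCM7 on its brightest probe set alone. In whole cultures a change in the share of cells in S phase and a change in RNA per cell cannot be told apart.

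In Sharp1 against control, 12 of 41 members were called higher and 8 lower, or 29.3% and 19.5%. Over all genes tested, 15.3% were called higher and 11.8% lower. The members are bright, and of the 7897 genes within their range of means 28.1% were higher and 20.3% lower, close to the members' shares. With each array centred on its median, 13 members were higher and 4 lower. The median change was 0.05 for the members and -0.0018 for all genes. In shHIF against control, 5 members were called higher and 11 lower, or 12.2% and 26.8%, where the shares were 17.6% and 13.2% of all genes and 28.8% and 24.6% of genes in that range. The median change was -0.0052 for the members and 0.05 for all genes. Directly between Sharp1 and shHIF cells, 15 members were higher in Sharp1 and 7 lower, where 18.0% and 20.4% of all genes, and 32.7% and 30.7% of those in the range, were called. With centred arrays these counts were 17 and 3. Both comparisons with control share its 4 arrays. Of the 41 members, 12 were called in neither of them on their brightest probe sets: ORC1, ORC6, MCM2, MCM4, MCM5, MCM10, GINS1, PRIM1, PRIM2, RFC1, RFC2 and RPA3. MCM4 and MCM10 had other probe sets called lower in shHIF cells.

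**Figure D1:**
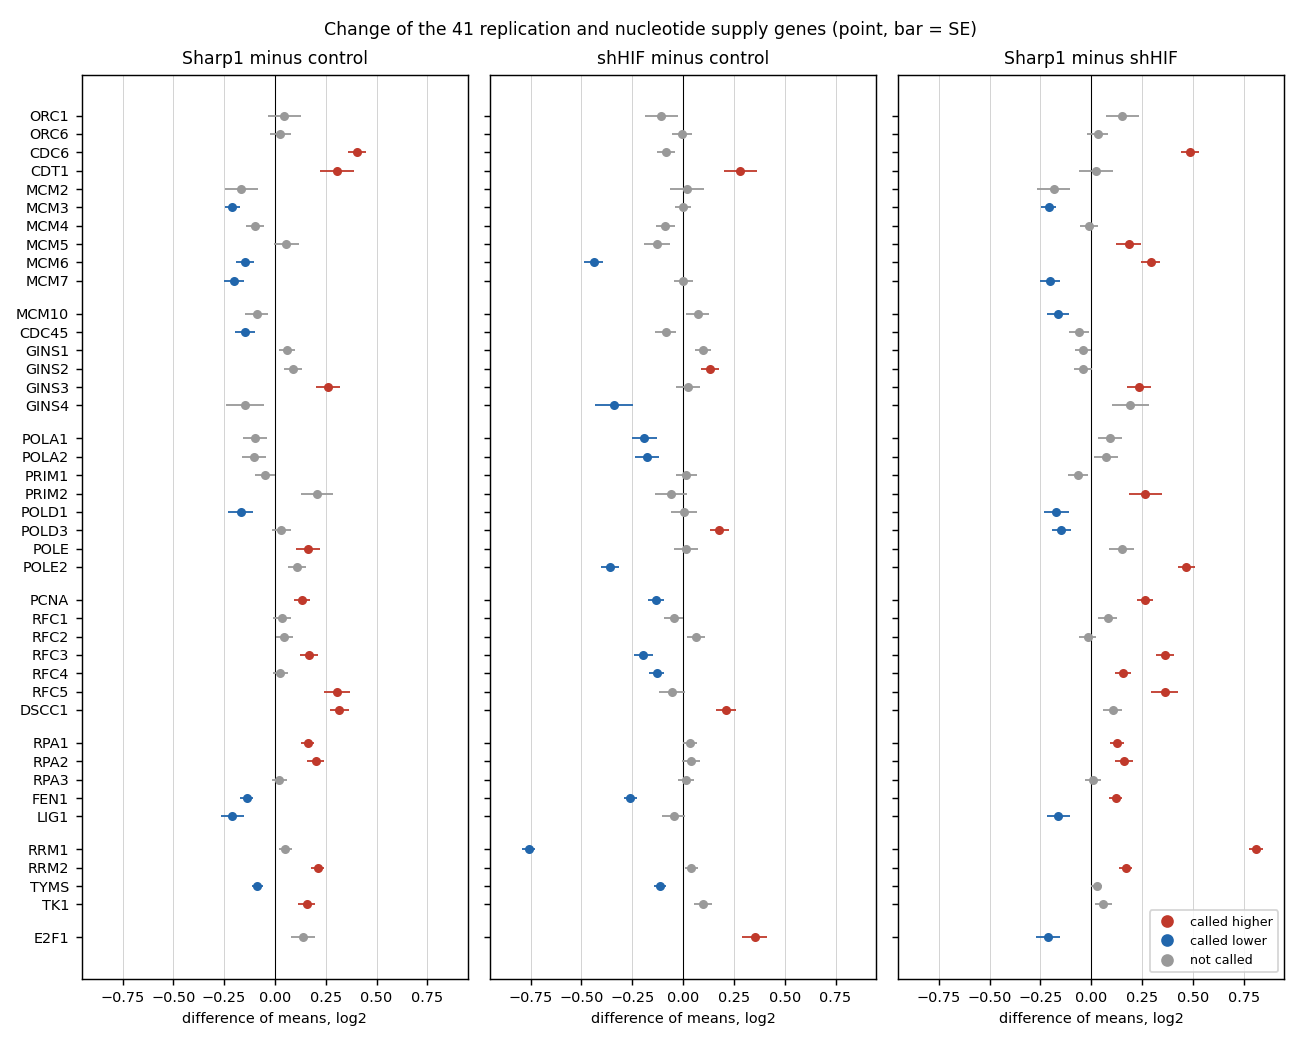
Change of each of the 41 members on the log2 scale in Sharp1 minus control, shHIF minus control and Sharp1 minus shHIF, in the order of their roles; points are differences of group means (n = 4 arrays), bars are SE, and colour marks the call. Most points lie within 0.25 of 0, and RRM1 stands apart at -0.76 in shHIF minus control and 0.81 in Sharp1 minus shHIF.

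Promoter windows were read from RefSeq (GRCh38.p14), 250 bases before to 50 after each annotated start, for the 34 members found in that table (MCM4, MCM5, GINS4, POLD3, DSCC1, RPA2 and RPA3 were not). Some genes have several starts, which gave 43 windows. An E2F word (TTTCGCGC or TTTGGCGC or TTTCCCGC or TTTGCCGC, on either strand) was present in 18 windows (41.9%), against 3.31% of all 35116 windows. The NF-Y word CCAAT was present in 60.5% against 34.6%, and the CHR words TTTGAA or TTCGAA in 4.65% against 16.4%. The hypoxia response cores ACGTG or GCGTG, which overlap the E-box CACGTG, were present in 67.4% against 48.4%. Of the 18 members with an E2F word, 6 were called higher and 5 lower in Sharp1 cells, and 3 and 7 in shHIF cells. Of the 16 members without one, 4 and 3, and 0 and 3, were called. Of the 26 members with a hypoxia core, 5 were called higher and 7 lower in Sharp1 cells, and 2 and 9 in shHIF cells. Of the 8 members without a hypoxia core, 5 and 1, and 1 and 1, were called. These matches describe the letters of the windows only.

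CACGTG is the E-box known to be bound by Sharp1, and 4 members held it (9.3% of windows, against 7.26% of all). Their stretches are shown with the E-box in capitals, 5′ to 3′ on the strand of the gene; they were chosen after the matches were seen. MCM2 (chr3:127598390-127598415, plus strand), MCM7 (chr7:100101407-100101432, minus strand), FEN1 (chr11:61792871-61792896, plus strand) and RPA1 (chr17:1829897-1829922, plus strand) hold it at positions -11, -25, -30 and -98 from the start.
MCM2: tttggtgggtCACGTGaaccactttt
MCM7: tggcgccggtCACGTGgggggcgacg
FEN1: gcgagcaggtCACGTGacgggagcgc
RPA1: atgggtgggtCACGTGggccgcgcct
In Sharp1 cells MCM7 and FEN1 fell (log2 -0.20 and -0.14), RPA1 rose (0.16), and MCM2 differed by -0.17 (adjusted p = 0.165). MCM2 was called lower there in 2 of 21 alternative settings, without Sharp1 array B (log2 -0.28, adjusted p = 0.00124) and with array weights (log2 -0.19, adjusted p = 0.0352). On its second probe set MCM7 differed by -0.04 (adjusted p = 0.701 over all probe sets). Of these 4 genes, 1 was called higher and 2 lower in Sharp1 cells, and 0 and 1 in shHIF cells. Of the 30 members without the E-box, 9 and 6, and 3 and 9, were called. Whether the E-box bears on the level of any of them was not tested.

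**Figure D2:**
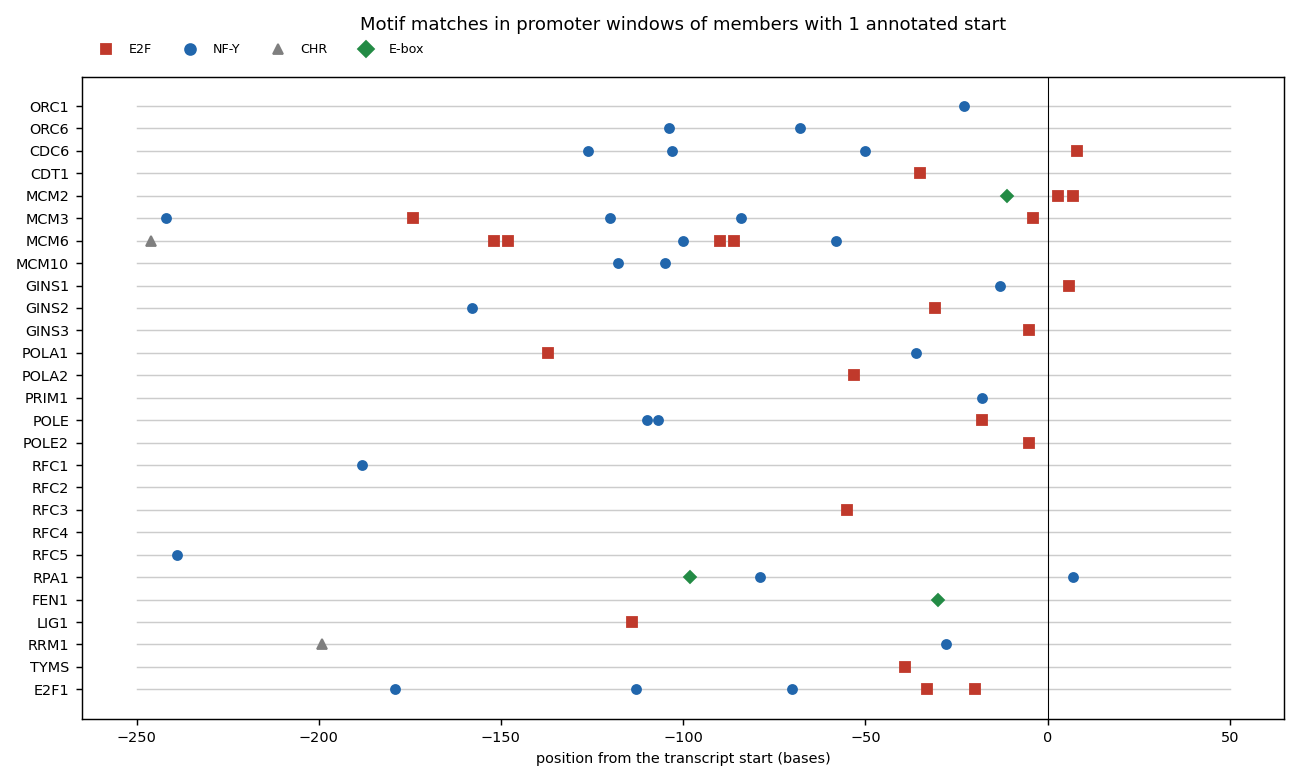
Positions of E2F, NF-Y (CCAAT), CHR and E-box words, in bases from the transcript start at 0, in the windows of the 27 members with 1 annotated start; each grey line is a window. E2F words lie close to the start in most windows that hold one, and MCM6 holds 4 E2F matches further upstream, in overlapping pairs.

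Of the 10 origin licensing genes, 2 rose and 3 fell in Sharp1 cells, and 1 rose and 1 fell in shHIF cells. Over all genes, 15.3% rose and 11.8% fell in Sharp1 cells, and 17.6% and 13.2% in shHIF cells. Among equally bright genes these shares were 28.1% and 20.3%, and 28.8% and 24.6%. CDC6, the ATPase that loads the MCM ring, read 9.87, 9.92, 9.86 and 9.86 on control arrays A to D, 9.75, 9.79, 9.81 and 9.83 on shHIF arrays and 10.32, 10.17, 10.29 and 10.35 on Sharp1 arrays. Its 4 Sharp1 arrays lay above all others, a rise of 0.40 (SE 0.04, adjusted p = 9.58e-08) over control, and a second probe set rose by 0.23. The shHIF arrays lay just below control, but the difference of -0.08 was not called (adjusted p = 0.168). The window of CDC6 (chr17:40287629-40287928, plus strand) is printed because it is the member that rose most in Sharp1 cells, with E2F, NF-Y, CHR and E-box words in capitals here and in the windows of the other members below: 3 CCAAT words and 1 E2F word.
CDC6: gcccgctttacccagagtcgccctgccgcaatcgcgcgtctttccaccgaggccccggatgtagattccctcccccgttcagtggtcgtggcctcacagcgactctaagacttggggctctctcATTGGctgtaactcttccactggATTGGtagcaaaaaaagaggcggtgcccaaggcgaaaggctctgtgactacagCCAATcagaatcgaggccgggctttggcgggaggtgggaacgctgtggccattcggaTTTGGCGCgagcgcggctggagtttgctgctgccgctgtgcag

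CDT1, the partner of CDC6 in loading, gave 8.08, 8.29, 8.06 and 8.30 in control, 8.54, 8.52, 8.56 and 8.24 in shHIF and 8.38, 8.73, 8.47 and 8.38 in Sharp1 cells, in the same order of arrays. It rose by 0.30 (SE 0.08, adjusted p = 0.00606) in Sharp1 and by 0.28 (SE 0.08, adjusted p = 0.0101) in shHIF cells, where array D (8.24) lay within the control range. The design of that probe set (suffix _x_at) lets it cross-hybridise with similar transcripts, and the other CDT1 probe set differed by 0.05 and -0.02, not called. ORC1 and ORC6, subunits of the origin recognition complex, differed by 0.05 and 0.03 in Sharp1 and by -0.11 and -0.01 in shHIF cells and were not called.

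Among the ring subunits, MCM3 read 11.79, 11.65, 11.75 and 11.71 on control arrays A to D, 11.75, 11.75, 11.73 and 11.66 on shHIF arrays and 11.51, 11.46, 11.50 and 11.58 on Sharp1 arrays. The Sharp1 arrays lay below every other array, and MCM3 fell by 0.21 (SE 0.04, adjusted p = 9.65e-05), while shHIF and control overlapped (adjusted p = 0.999). MCM7 gave 10.84, 10.70, 10.71 and 10.79 in control, 10.72, 10.79, 10.70 and 10.84 in shHIF and 10.58, 10.42, 10.61 and 10.63 in Sharp1 cells, in the same order of arrays. With all Sharp1 arrays below the others, it fell there by 0.20 (SE 0.05, adjusted p = 0.00193) while shHIF and control overlapped (adjusted p = 0.986). On its second probe set the Sharp1 difference was -0.04 (adjusted p = 0.701 over all probe sets), so the MCM7 call and its size rest on the brighter one.

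MCM6 read 11.13, 11.04, 11.06 and 11.19 on control arrays A to D, 10.55, 10.77, 10.66 and 10.67 on shHIF arrays and 10.95, 10.98, 10.97 and 10.91 on Sharp1 arrays. The shHIF arrays were lowest, the Sharp1 arrays lay between, and no group overlapped another. It fell by 0.44 in shHIF cells (SE 0.04, adjusted p = 2.90e-08) and by 0.76 on its second, dimmer probe set. In Sharp1 cells it fell by 0.15 (adjusted p = 0.0133), a call lost without control D (adjusted p = 0.0608) and absent on the second probe set (0.05). MCM2, MCM4 and MCM5 differed by -0.17, -0.10 and 0.06 in Sharp1 and by 0.02, -0.09 and -0.13 in shHIF cells, and none was called. Another MCM4 probe set, nearly as bright, fell by 0.13 in shHIF cells (adjusted p = 0.0402 over all probe sets), with its arrays wholly below control. In Sharp1 cells that probe set differed by 0.03, and the remaining MCM4 probe sets were not called against control. Of the 6 subunits of the ring, 3 were called lower in Sharp1 cells and 1 in shHIF cells. Among equally bright genes, 28.1% were called higher and 20.3% lower in Sharp1 cells, and 28.8% and 24.6% in shHIF cells. With array weights, MCM2 and MCM4 were also called lower in Sharp1 cells (log2 -0.19 and -0.11, adjusted p = 0.0352 and 0.0459). Of 21 alternatives, MCM2 was called there in 2 and MCM4 in 1. Other alternatives lowered the count: MCM6 was lost with centred arrays, without trend and with the mean of its probe sets (adjusted p = 0.0571, 0.0686 and 0.676).

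**Figure D3:**
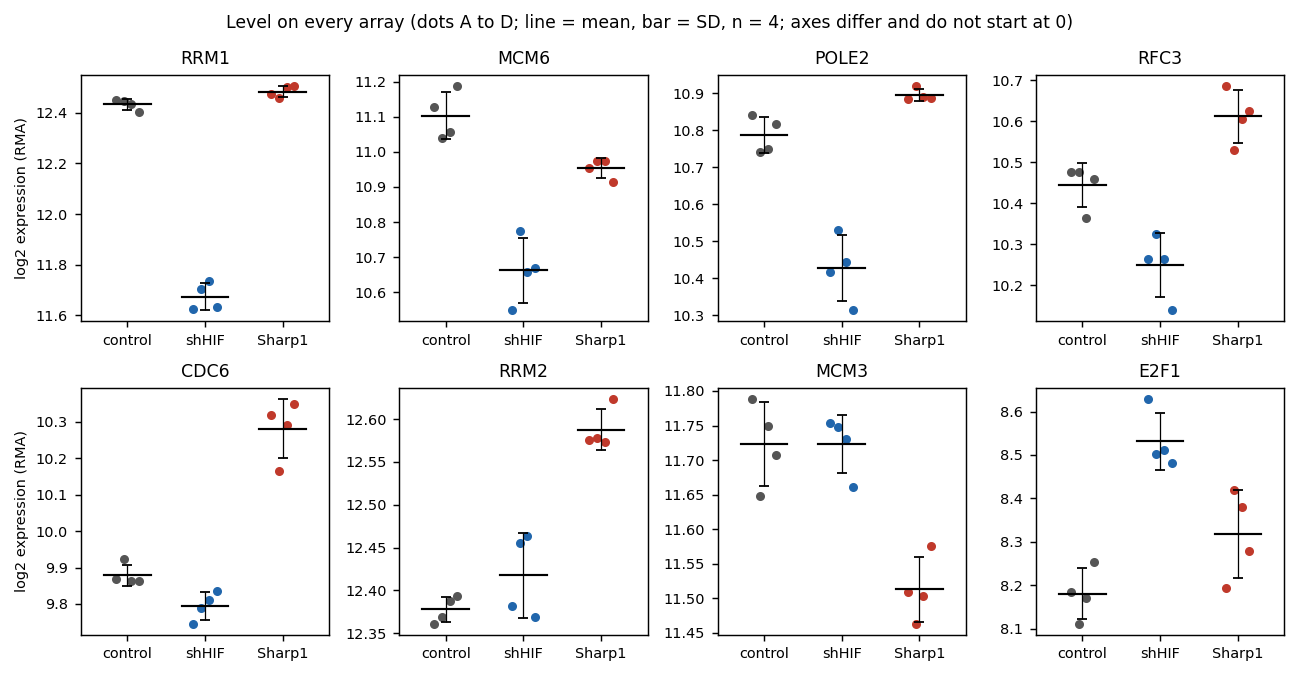
Levels (log2, RMA) of RRM1, MCM6, POLE2, RFC3, CDC6, RRM2, MCM3 and E2F1 on every array of the control, shHIF and Sharp1 groups; lines are means and bars SD (n = 4), and the axes differ between genes. The shHIF arrays are lowest for RRM1, MCM6, POLE2 and RFC3, and the Sharp1 arrays are highest for CDC6 and RRM2 and lowest for MCM3.

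Of 6 genes of helicase activation, 1 rose and 1 fell in each comparison with control. The shares over all genes were 15.3% and 11.8% in Sharp1 cells and 17.6% and 13.2% in shHIF cells. Equally bright genes gave 28.1% and 20.3%, and 28.8% and 24.6%. GINS3, a GINS subunit, rose in Sharp1 cells by 0.26 (SE 0.06, adjusted p = 0.00125) with its Sharp1 arrays above all control arrays, and by 0.27 on its other probe set. CDC45, the helicase cofactor, fell by 0.15 (adjusted p = 0.0333), a call that held in 12 of 21 alternatives and was lost without control A, C or D or Sharp1 A, C or D (adjusted p up to 0.139). GINS4 gave 8.61, 8.70, 8.68 and 8.83 in control, 8.38, 8.52, 8.41 and 8.16 in shHIF and 8.31, 8.91, 8.56 and 8.45 in Sharp1 cells, in the same order of arrays. It fell by 0.34 in shHIF cells (SE 0.09, adjusted p = 0.00587), which was not called without shHIF A and D (log2 -0.24, adjusted p = 0.0935), and its Sharp1 arrays spread from 8.31 to 8.91, so that it was called lower there without Sharp1 B (log2 -0.26, adjusted p = 0.0121). GINS2 rose by 0.13 in shHIF cells (adjusted p = 0.0266), which held in 11 of 21 alternatives and was lost without control A, B or C, without shHIF B or D, and without shHIF A and D together (log2 0.11, adjusted p = 0.119), while another probe set read -0.21 (adjusted p = 0.107 over all probe sets). GINS1 differed by 0.06 and 0.10 in Sharp1 and shHIF cells and was not called, except in shHIF cells in 3 of 21 alternatives: with array weights, without shHIF C and without shHIF D (adjusted p = 0.0400, 0.0394 and 0.0469).

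MCM10, which helps to activate and bind the helicase, gave different answers on its 3 probe sets. On the brightest the shHIF difference was 0.07 (adjusted p = 0.365). On the other pair it fell by 0.43 and 0.34 (adjusted p = 1.38e-05 and 0.000289 over all probe sets). On the first of these the arrays read 8.80, 8.84, 8.74 and 8.86 in control, 8.36, 8.47, 8.49 and 8.17 in shHIF and 8.91, 8.98, 9.01 and 8.98 in Sharp1 cells. The shHIF arrays there lay below all others. The brightest probe set, which was not called in shHIF cells, did not share this fall, so no direction is given for MCM10 as a gene.

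Of the 8 primase and polymerase genes, 1 rose and 1 fell in Sharp1 cells, and 1 rose and 3 fell in shHIF cells. All genes gave shares of 15.3% and 11.8%, and 17.6% and 13.2%, and equally bright genes 28.1% and 20.3%, and 28.8% and 24.6%. POLE2, the second subunit of polymerase epsilon, read 10.84, 10.74, 10.75 and 10.82 on control arrays A to D, 10.42, 10.53, 10.45 and 10.31 on shHIF arrays and 10.88, 10.92, 10.89 and 10.89 on Sharp1 arrays. It fell by 0.36 in shHIF cells (SE 0.04, adjusted p = 3.96e-07), with each of the 4 arrays below every control array, and differed by 0.11 in Sharp1 cells (adjusted p = 0.0693, or 0.0334 and 0.0467 without shHIF D or B, and 0.0259 without shHIF A and D, since these arrays enter the shared spread). The catalytic subunit gene POLE rose by 0.16 in Sharp1 cells (adjusted p = 0.0463), held in 14 of 21 alternatives and lost without any 1 control array or Sharp1 C or D (adjusted p up to 0.184), and differed by 0.01 in shHIF cells. POLA1 and POLA2, the catalytic and second subunits of polymerase alpha, fell in shHIF cells by 0.19 and 0.18 (adjusted p = 0.0179 and 0.0253). POLA1 was not called without shHIF A and D (adjusted p = 0.180), nor without control A, control B or shHIF A (0.0508 to 0.0708), and POLA2 was lost without control A, B or C or shHIF A or C (adjusted p from 0.0529 to 0.0776). The primase genes PRIM1 and PRIM2 differed by -0.05 and 0.21 in Sharp1 and by 0.02 and -0.06 in shHIF cells. For PRIM2 in Sharp1 cells the adjusted p was 0.0590, and it passed in 8 of 21 alternatives, among them without shHIF C, shHIF D or Sharp1 C, and without shHIF A and D together (adjusted p = 0.00901).

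The polymerase delta genes were called in different comparisons with control, and both were called lower in Sharp1 than in shHIF cells. POLD1, which carries the active site, gave 8.83, 8.60, 8.81 and 8.90 in control, 8.79, 8.80, 8.84 and 8.73 in shHIF and 8.50, 8.71, 8.66 and 8.60 in Sharp1 cells, in the same order of arrays. In Sharp1 cells it fell by 0.17 (SE 0.06, adjusted p = 0.0461), with overlapping arrays, and was called in only 10 of 21 alternatives, being lost without control A, C or D, shHIF A or B, or Sharp1 A, C or D (adjusted p up to 0.173). POLD3, an accessory subunit, gave 8.84, 8.82, 8.74 and 8.79 in control, 8.94, 9.00, 8.93 and 9.03 in shHIF and 8.86, 8.80, 8.82 and 8.83 in Sharp1 cells, in the same order of arrays. It rose by 0.18 in shHIF cells (SE 0.05, adjusted p = 0.00593), where all 4 arrays lay above control, and differed by 0.03 in Sharp1 cells. Its second probe set differed by -0.05 in shHIF cells.

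Of the 7 clamp and loader genes, 4 were called higher and 0 lower in Sharp1 cells, and 1 higher and 3 lower in shHIF cells. Among equally bright genes, 28.1% and 20.3%, and 28.8% and 24.6%, were called. The 4 include RFC5, whose probe sets disagree, and RFC3, whose Sharp1 call rests on its brightest probe set.  PCNA, the clamp, read 12.61, 12.72, 12.66 and 12.65 in control, 12.53, 12.54, 12.64 and 12.40 in shHIF and 12.78, 12.83, 12.76 and 12.78 in Sharp1 cells. It rose by 0.13 in Sharp1 (adjusted p = 0.0129, or 0.0583 without control A) and fell by 0.13 in shHIF cells (adjusted p = 0.0122, or 0.0574 without control B, 0.0531 without shHIF D and 0.201 without shHIF A and D). RFC3, a loader subunit, read 10.48, 10.48, 10.36 and 10.46 on control arrays A to D, 10.26, 10.32, 10.26 and 10.14 on shHIF arrays and 10.69, 10.53, 10.60 and 10.62 on Sharp1 arrays. The 3 groups did not overlap, with Sharp1 up by 0.17 (SE 0.05, adjusted p = 0.00677) and shHIF down by 0.20 (SE 0.05, adjusted p = 0.00162). As the mean of its 3 probe sets, RFC3 was not called in Sharp1 cells (log2 0.02). Its other probe sets differed there by 0.01 and -0.13, not called. RFC4 fell by 0.13 in shHIF cells and differed by 0.03 in Sharp1 cells, and RFC1 and RFC2 were not called in either.

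RFC5, another loader subunit, gave 10.82, 10.93, 10.85 and 10.79 in control, 10.79, 10.95, 10.90 and 10.52 in shHIF and 11.14, 11.04, 11.24 and 11.19 in Sharp1 cells, in the same order of arrays, on the probe set brightest over the 12 arrays. There it rose by 0.31 in Sharp1 cells (SE 0.06, adjusted p = 0.000624). A second probe set differed by -0.13 and the remaining one fell by 0.18 (adjusted p = 0.0633 and 0.00785 over all probe sets), and both fell in shHIF cells, by 0.32 and 0.26. RFC5 is the only member with probe sets called in opposite directions in Sharp1 cells, and no direction is given for it. DSCC1, which builds the alternative loader used in cohesion, gave 9.69, 9.66, 9.63 and 9.70 in control, 9.95, 9.87, 9.78 and 9.92 in shHIF and 10.07, 9.99, 9.88 and 10.00 in Sharp1 cells, in the same order of arrays. It rose by 0.32 in Sharp1 (SE 0.05, adjusted p = 1.05e-05) and by 0.21 in shHIF cells (SE 0.05, adjusted p = 0.00120), and in both its arrays lay above control. Its dimmer probe set differed by -0.09 and 0.05 and was not called.

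**Figure D4:**
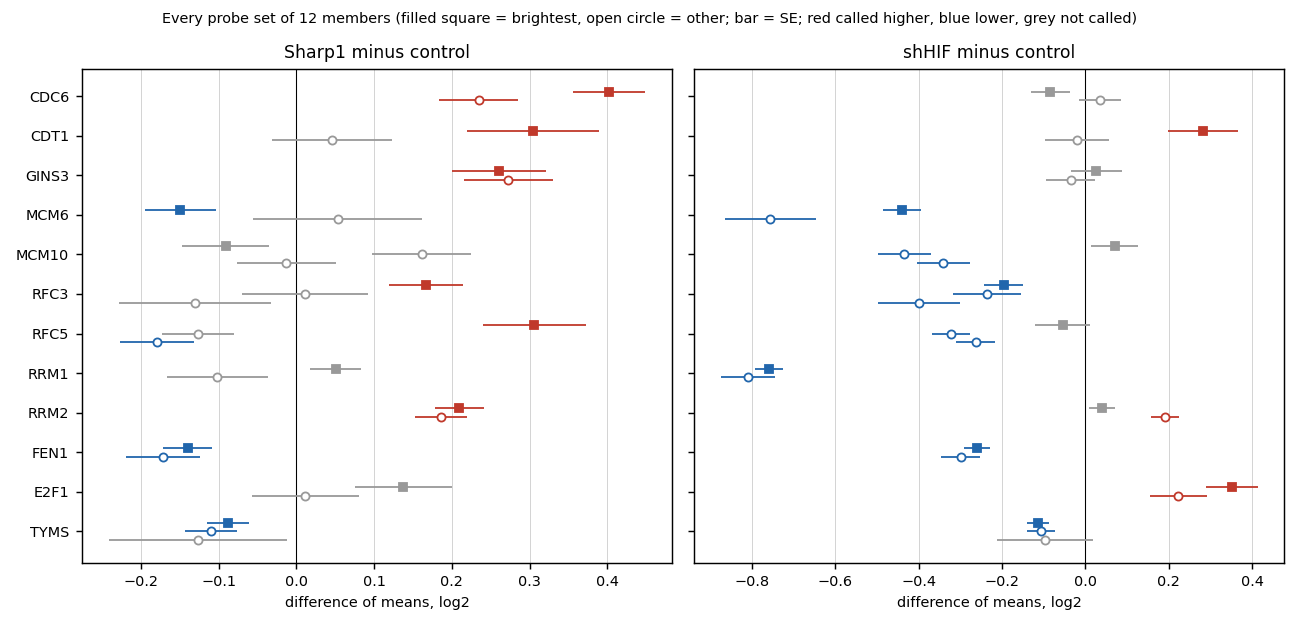
Change on the log2 scale of every probe set of 12 members in Sharp1 minus control and shHIF minus control; filled squares are the brightest probe set of a gene, open circles the others, bars are SE, and calls are adjusted over all probe sets. RRM1, FEN1 and RFC3 fall in shHIF cells on each probe set, whereas MCM10 and RFC5 lie at 0.07 and -0.05 on the brightest probe set and below -0.25 on the others.

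Of the genes for single-stranded DNA binding and fragment joining, RPA1 and RPA2, subunits of replication protein A, rose in Sharp1 cells by 0.16 and 0.20 (adjusted p = 0.000686 and 0.000930) with arrays wholly above control, and differed by 0.03 and 0.04 in shHIF cells. RPA3 differed by 0.02 and 0.01. FEN1, the flap nuclease that trims Okazaki fragments, read 12.44, 12.36, 12.45 and 12.46 in control, 12.17, 12.19, 12.17 and 12.14 in shHIF and 12.31, 12.25, 12.30 and 12.29 in Sharp1 cells. It fell by 0.26 in shHIF (SE 0.03, adjusted p = 5.54e-07) and by 0.14 in Sharp1 cells (adjusted p = 0.00135), and its second probe set fell in both. LIG1, the ligase that seals the fragments, gave 9.64, 9.51, 9.57 and 9.67 in control, 9.41, 9.72, 9.57 and 9.51 in shHIF and 9.40, 9.33, 9.40 and 9.43 in Sharp1 cells, in the same order of arrays. The Sharp1 arrays lay below all of control, a fall of 0.21 (SE 0.06, adjusted p = 0.00551). In shHIF cells the difference was -0.05, and there the arrays spread around those of control. The window of LIG1, printed for the largest fall in Sharp1 cells (level with MCM3 at this precision), lies at chr19:48170295-48170594 on the minus strand and holds 1 E2F word and no CCAAT.
LIG1: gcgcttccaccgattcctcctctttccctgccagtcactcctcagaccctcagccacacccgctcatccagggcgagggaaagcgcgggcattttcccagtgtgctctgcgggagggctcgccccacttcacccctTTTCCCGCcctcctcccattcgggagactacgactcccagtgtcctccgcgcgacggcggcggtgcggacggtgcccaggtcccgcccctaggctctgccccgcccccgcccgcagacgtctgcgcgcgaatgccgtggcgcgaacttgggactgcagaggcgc

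Nucleotide supply held the largest change. RRM1 read 12.45, 12.45, 12.43 and 12.40 on control arrays A to D, 11.63, 11.70, 11.74 and 11.63 on shHIF arrays and 12.47, 12.46, 12.50 and 12.50 on Sharp1 arrays. The shHIF arrays all lay more than 0.6 below every other array, and the control and Sharp1 arrays differed by 0.05 (adjusted p = 0.309). The fall in shHIF cells (log2 -0.76, SE 0.03, adjusted p = 7.48e-15) was 0.81 on the second probe set, and -0.71 without shHIF A and D. RRM2, the small subunit that limits the enzyme's activity through the cycle, read 12.36, 12.37, 12.39 and 12.39 in control, 12.38, 12.46, 12.46 and 12.37 in shHIF and 12.58, 12.58, 12.57 and 12.62 in Sharp1 cells. All Sharp1 arrays lay above the others, a rise of 0.21 (SE 0.03, adjusted p = 9.47e-06), with 0.19 on the second probe set. The shHIF difference was 0.04 (adjusted p = 0.384), while the second probe set was called higher by 0.19. The subunits of 1 enzyme thus changed apart: RRM1 fell in shHIF cells alone of the pair, and RRM2 rose in Sharp1 cells while RRM1 did not pass the test.

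The window of RRM1, the largest fall in shHIF cells, lies at chr11:4094435-4094734 on the plus strand. It holds 1 CCAAT word near the start, 1 CHR word, 1 hypoxia core (ACGTG on the opposite strand at position 36, not in capitals) and none of the E2F words searched.
RRM1: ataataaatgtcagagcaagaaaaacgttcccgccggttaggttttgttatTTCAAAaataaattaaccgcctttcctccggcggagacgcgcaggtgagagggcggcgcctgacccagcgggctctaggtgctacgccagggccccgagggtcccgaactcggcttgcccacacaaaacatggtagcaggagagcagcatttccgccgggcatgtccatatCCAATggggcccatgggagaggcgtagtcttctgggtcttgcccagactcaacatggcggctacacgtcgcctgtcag
TYMS, which makes thymidylate, fell by 0.09 in Sharp1 (adjusted p = 0.0177, or 0.0665 without control A) and by 0.11 in shHIF cells (adjusted p = 0.00221), and its second probe set fell by 0.11 in each. TK1, which salvages thymidine, rose by 0.16 in Sharp1 cells (adjusted p = 0.00575) and differed by 0.10 in shHIF cells (adjusted p = 0.0841, or 0.0272 without control D).

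E2F1, the transcription factor, read 8.19, 8.11, 8.17 and 8.25 on control arrays A to D, 8.63, 8.50, 8.51 and 8.48 on shHIF arrays and 8.19, 8.42, 8.38 and 8.28 on Sharp1 arrays. The shHIF arrays lay above all others, a rise of 0.35 (SE 0.06, adjusted p = 5.59e-05), with 0.22 on the second probe set. Sharp1 overlapped control (difference 0.14, adjusted p = 0.101, or 0.0382 without Sharp1 A). Its window (chr20:33686336-33686635, minus strand), printed as that of the largest rise in shHIF cells, holds 3 CCAAT and 2 E2F words.
E2F1: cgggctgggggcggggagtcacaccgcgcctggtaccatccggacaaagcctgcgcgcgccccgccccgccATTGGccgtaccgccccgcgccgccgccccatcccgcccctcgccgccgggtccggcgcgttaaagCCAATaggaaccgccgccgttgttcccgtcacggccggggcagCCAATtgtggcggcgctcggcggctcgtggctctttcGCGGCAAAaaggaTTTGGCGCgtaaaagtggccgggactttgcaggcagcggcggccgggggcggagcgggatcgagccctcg

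Set directly against each other, Sharp1 and shHIF cells differed most in RRM1 (log2 0.81, SE 0.03, adjusted p = 4.49e-16). CDC6 followed at 0.49, POLE2 at 0.47, RFC3 at 0.36 and MCM6 at 0.29, each higher in Sharp1 cells with no overlap of arrays. PCNA (0.26), FEN1 (0.12), RRM2 (0.17), RPA1 (0.13), RPA2 (0.16), RFC4 (0.16) and GINS3 (0.23) were also called higher in Sharp1 cells. The RRM2 call rests on its brightest probe set, since the second, nearly as bright, differed by -0.0051 (adjusted p = 0.933 over all probe sets). RFC5 (0.36), PRIM2 (0.27) and MCM5 (0.18) make up the 15, and PRIM2 and MCM5 were not called without shHIF A and D (adjusted p = 0.257 and 0.0675), nor was RPA2 (0.131). PRIM2 was also lost without shHIF D, and MCM5 without Sharp1 B or C (adjusted p = 0.0560, 0.109 and 0.0605). MCM3 and MCM7 (-0.21 and -0.20), E2F1 (-0.21), POLD1 (-0.17), LIG1 (-0.16), MCM10 (-0.16) and POLD3 (-0.15) were lower. Of these, LIG1 was lost without shHIF B or Sharp1 B, MCM10 without Sharp1 B, POLD3 without shHIF D, and POLD1 without shHIF A, B or C or Sharp1 A or D (adjusted p from 0.0550 to 0.121). Without shHIF A and D, MCM10 and POLD3 were also lost (adjusted p = 0.0670 and 0.0714), while MCM2 was called lower (log2 -0.27, adjusted p = 0.0330) and DSCC1 higher (log2 0.16, adjusted p = 0.0224) in Sharp1 than in shHIF cells. MCM10 had probe sets called in opposite directions in this comparison, since its others were higher by 0.60 and 0.33.

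Over the 78 probe sets of the members, 16 were called higher and 9 lower in Sharp1 cells, where 18.1% of all probe sets were called in either direction. In shHIF cells 7 were higher and 22 lower, where 22.2% of all were called in either direction. Between Sharp1 and shHIF cells 28 were higher and 9 lower, where 29.1% were. Only 6 of the members' probe sets had a mean below the median of all values, and no share was taken among equally bright probe sets.

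Other genes of the pathway were read from lists of names. Their counts stand beside the shares called over all genes, 15.3% higher and 11.8% lower in Sharp1 cells and 17.6% and 13.2% in shHIF cells, and the higher shares given above for bright genes. Of 35 other replisome and licensing genes, 4 rose and 12 fell in Sharp1 cells and 6 rose and 6 fell in shHIF cells. RNASEH2A, a subunit of ribonuclease H2, rose by 0.44 and POLE4, an accessory subunit of polymerase epsilon, fell by 0.90 in Sharp1 cells. In shHIF cells RECQL4, a helicase, rose by 0.40, MCM9, a relative of the MCM ring, fell by 1.02 and ORC3, an origin recognition subunit, fell by 0.49. Of 34 other nucleotide supply genes tested, 11 rose and 11 fell in Sharp1 cells and 7 rose and 10 fell in shHIF cells. CTPS2, a CTP synthase, rose by 0.62 in Sharp1 and 0.63 in shHIF cells. SLC29A1, a nucleoside transporter, and DCK, a deoxynucleoside kinase, fell in Sharp1 cells by 0.94 and 0.62. PRPS2, which makes the ribose phosphate donor, and RRM2B, the alternative small subunit of ribonucleotide reductase, fell in shHIF cells by 0.47 and 0.40.

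Of 25 genes of the E2F and pocket protein network, 6 rose and 5 fell in Sharp1 cells and 7 rose and 7 fell in shHIF cells. CCNE1, the cyclin that drives S phase entry, rose by 1.29 in shHIF cells, from 7.95 in control to 9.24, larger than any member's change. CDKN1B, an inhibitor of cyclin-dependent kinases, rose by 0.60 there and fell by 0.29 in Sharp1 cells. SKP2, which targets CDKN1B for degradation, fell by 0.49 in shHIF cells, and E2F7, a repressing E2F, rose by 0.46 in Sharp1 cells. Of 13 chromatin assembly genes, 1 rose and 4 fell in Sharp1 and 4 rose and 3 fell in shHIF cells, with SLBP, the histone mRNA binding protein, down by 0.34 in Sharp1 cells and HELLS, a chromatin remodeller, down by 0.26 in shHIF cells. Of 25 mitosis genes, 2 rose and 7 fell in Sharp1 cells and 8 rose and 1 fell in shHIF cells, with median changes of -0.06 and 0.08. For the 41 members the medians were 0.05 and -0.0052, and the difference between the lists was not tested.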

How the data were processed

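RNA of 12 arrays in 3 groups of 4 was measured on Affymetrix arrays with 54675 probe sets, 62 of them controls. The deposited values are log2 signals, and RMA is the method that the submitters' processing notes name, without a version. Arrays have no read depth, so their number limits the precision.

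Gene names came from the platform's annotation: of the probe sets that are not controls, 41091 had 1 gene symbol, 1801 several and 11721 none. Symbols were checked by gene ID against GRCh38.p14 (0 renamed). PRIM2 also has 4 probe sets shared with another symbol, not used here. The probe set with the highest mean over all arrays stood for its gene, giving 19775 genes. In R 4.3.3, limma 3.58.1 fitted a mean per group over all 12 arrays with eBayes and trend, and Benjamini-Hochberg adjustment ran over all genes, or over 54613 probe sets where stated. The fit was tested on simulated data.

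The members, lists and alternatives were chosen with earlier results of these data known. Values on every array are given for the called members that rose most and fell most in each comparison, up to 4 in each direction, and for PCNA, FEN1, RRM2 and MCM10, chosen after their values were seen. From the other lists, up to 2 called genes per direction were named. Alternatives were a replicate block, array centring, no dim genes, the 2 groups alone, array weights, no trend, other probe set choices, leaving out each array, and leaving out shHIF A and D.

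The letters A to D were not shown to pair the arrays. Of 12 pairs of arrays with the same letter, 1 had deviations correlated over 0.1 (range -0.18 to 0.14). Among 36 pairs with different letters, 8 did (range -0.20 to 0.23). This check cannot exclude shared cultures or batches.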

Additional observations from a re-analysis of the deposited data

Results flagged for a closer look

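Among 123 sets of 4 arrays (41 genes in 3 groups), 11 held an array whose distance to its nearest neighbour was more than 0.829 of the range of the group; chance flags about 1 in 20 such sets. As a share of the range, the largest distance was that of MCM10 on control B, which read 9.93 against 9.84 on the nearest array. On Sharp1 B the same gene read 9.56 against 9.82. CDC6 read 9.92 on control B against 9.87 on the nearest array, and RFC1 read 9.43 on control B against 9.39 on the nearest array. POLA1 read 8.45 on control C against 8.55 on the nearest array, and RFC3 read 10.36 on control C against 10.46 on the nearest array. In shHIF cells, CDT1 read 8.24 on shHIF D against 8.52 on the nearest array, and RPA1 read 12.28 on shHIF B against 12.36 on the nearest array. In Sharp1 cells, POLE2 read 10.92 on Sharp1 B against 10.89 on the nearest array, RFC4 read 11.40 on Sharp1 A against 11.51 on the nearest array, and RRM2 read 12.62 on Sharp1 D against 12.58 on the nearest array.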

How the results depend on the processing

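Of the calls reported, 11 of 20 in Sharp1, 6 of 16 in shHIF and 15 of 22 between Sharp1 and shHIF cells held in all 21 alternatives. CDC6, RRM2, MCM3, MCM7 and LIG1 in Sharp1 cells are among them, and in shHIF cells they are RRM1, MCM6, POLE2, FEN1, RFC3 and E2F1. With the replicate block, 12 members were higher and 6 lower in Sharp1 cells (CDC45 and POLD1 lost), and no other member's call changed; the letters were not shown to pair the arrays.

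Members called lower in Sharp1 cells numbered 4 with centred arrays and 4 without trend, and those lower in Sharp1 than in shHIF cells 3 and 4. Without trend, 13 probe sets of members were called in Sharp1 and 19 in shHIF cells. Members called higher in shHIF cells numbered 2 with the mean of all probe sets and 3 with probe sets free of the suffixes _x_at and _s_at, where the median change was -0.047. The cause was not tested. A change called in either setting took the opposite sign only with the choice of probe set. With the mean of all, RFC5 in Sharp1 cells was -6.15e-05, and in shHIF cells MCM10 was -0.23 and GINS2 -0.028, with MCM10 at 0.25 between Sharp1 and shHIF. Without those suffixes, DSCC1 in Sharp1 cells was -0.085, and in shHIF cells MCM10 was -0.43 and GINS2 -0.21, with MCM10 at 0.60 between Sharp1 and shHIF. Of all these, only MCM10 between Sharp1 and shHIF cells was called in each direction. The others were called either as reported or in the alternative, not in both.

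Leaving out 1 array at a time gave 10 to 14 members higher and 5 to 10 lower in Sharp1 cells (5 without control A or D), 4 to 6 and 8 to 11 in shHIF cells, and 14 to 18 and 5 to 7 between them. Probe sets called numbered 19 to 29, 22 to 29 and 30 to 37, and the median changes were 0.033 to 0.054, -0.037 (without shHIF B) to 0.00097 (without shHIF A) and 0.058 to 0.10. Most changes are under 0.3 on the log2 scale, and 4 arrays a group limit what can be called at that size.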
